A study of Mus musculus with 12 samples.

Results

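The transcriptome of neutrophils selected from the mouse spleen was compared between tumor-bearing mice without therapy and tumor-bearing mice 12 h after cryo-thermal therapy (CTT), a local treatment that freezes and then heats a tumor. The comparison covered 6 of the 12 libraries of the series, 3 control and 3 CTT, and all 16805 genes of the neutrophil table. All 6 libraries came from wild-type animals (labelled WT). Cells carrying Ly6G, which marks the surface of mouse neutrophils, were pulled from spleen suspensions with an antibody. The tumor model, the age of the mice, the number of mice behind each library and any sham procedure in the control mice were not stated in the labels. The labels call the replicates biological, and the p-values reflect the spread among libraries of one group. The library totals ran from 30942849 to 34935547 counts.

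Neutrophils are short-lived phagocytes that leave the bone marrow in large numbers after tissue injury. They sense damage and microbes through toll-like, complement, C-type lectin and chemokine receptors, and they act through stored granule proteins, through oxidants and through newly made cytokines and chemokines. The spleen holds a pool of them beside the B cells, T cells, macrophages and developing red cells of that organ.

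Markers of neutrophils and of other spleen cells were both present in the selected cells. Per gene length, on the authors' FPKM scale, the neutrophil genes S100a8 and Csf3r had mean levels of 1683 and 123 FPKM in the control group and 3413 and 203 FPKM in the CTT group. Ly6g itself, the gene of the selecting antibody's target, had mean levels of 12.9 and 19.95 FPKM. The B cell genes Cd79a and Ms4a1 had control means of 1158 and 251 FPKM, and the macrophage gene C1qa one of 247 FPKM, so that the labelled cell type was accompanied by B cell and macrophage transcripts in every library.

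The summed level of 16 neutrophil markers, in TMM-scaled CPM (counts per 1000000 of the library's scaled total), was 4282, 6286 and 4639 in control replicates 1 to 3 and 7937, 8390.2 and 13248 in CTT replicates 1 to 3, and the groups did not overlap. Of these markers, 10 had every CTT library above every control library, where 13.6% of all tested genes did, and the median log2 fold change of the list was 0.99 against −0.02 for all genes. The 12 monocyte markers summed to 2618, 3083 and 3119.7 CPM in the control libraries and 3519.8, 4068 and 5967 CPM after CTT. The 12 B cell markers summed to 3481, 7842 and 8757 CPM and 7042, 7724 and 7353 CPM, and the 12 red pulp macrophage markers to 3341, 3098 and 3157 CPM and 3051, 3814 and 3338 CPM. No marker of these lists was at 0 in all libraries. In such bulk samples a larger number of neutrophils and more RNA per neutrophil cannot be told apart. The part of these shifts in the results below was not tested.

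Control replicate 1 stood apart. The 16 erythroid markers, which include the globins, summed to 16583, 2824 and 950.2 CPM in control replicates 1 to 3 and 1149, 869 and 479.7 CPM after CTT. Its log2 CPM correlated with the other libraries at r = 0.913 to 0.956, whereas the other 5 correlated with each other at 0.970 to 0.985 (Pearson, across genes, which are not independent replicates). Counts of called genes are therefore given with all 6 libraries and without control replicate 1. Fold changes of genes that rose with all 6 libraries are from that fit unless stated, and the plot of these genes by role shows both values.

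**Figure D1:**
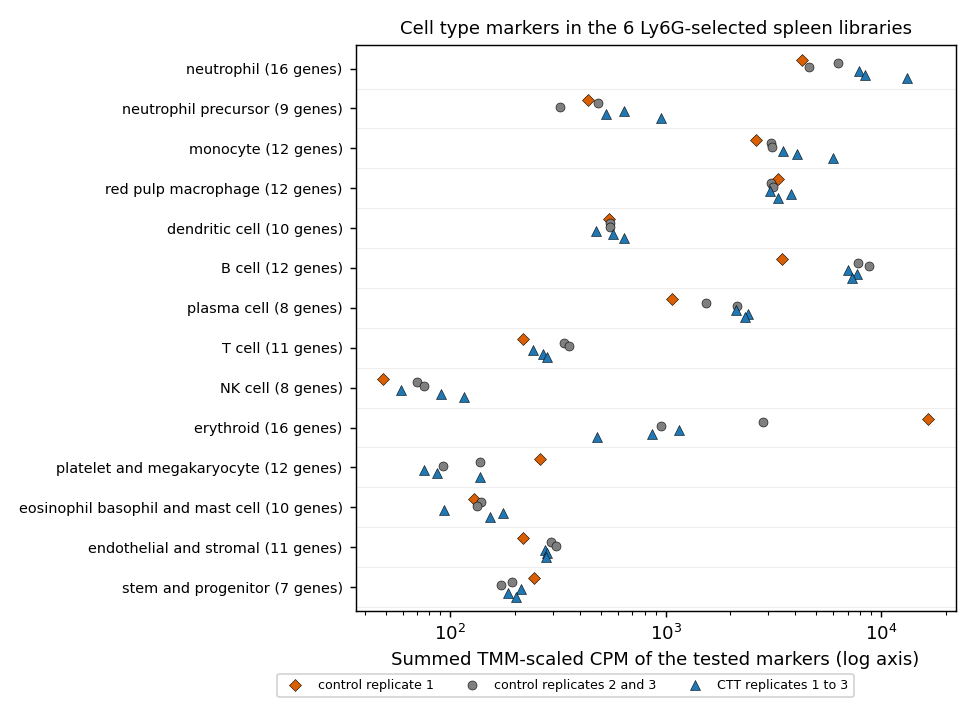
Summed CPM of the marker lists in each of the 6 libraries (logarithmic axis, 1 point per library, no error bars). Neutrophil markers were higher in the 3 CTT libraries than in the 3 control libraries, and the erythroid sum of control replicate 1 stood above all others.

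With all 6 libraries, 74 of 13058 tested genes rose after CTT at an adjusted p under 0.05 in edgeR's quasi-likelihood test, which is 0.567% of the genes tested, and 0 fell (0%). An unadjusted p under 0.05 was reached by 1081 higher and 749 lower genes, and DESeq2 on the same counts called 455 that rose and 107 that fell, limma-voom 69 and 0. Without control replicate 1, 257 of 13295 genes rose (1.93%) and 31 fell (0.233%). Counts of list members below are to be read beside these shares. All 74 genes were among the 257. Their log2 fold changes ran from 0.73 to 5.34 with a median of 1.51, and without control replicate 1 they moved by less than 0.1 in 53 genes and by less than 0.2 in 72. The largest shift was that of Cxcl3, from 3.40 to 4.02. All 74 are protein coding. In each of them the 3 CTT libraries lay above the 3 control libraries, where 13.6% of all tested genes did. The test picked the 74 from these same libraries, so this separation is no further support. In 44 of the 74 the lowest CTT library was at least 2 times the highest control library. CTT replicate 3 was the highest library in 44 of the 74, CTT replicate 1 in 14 and CTT replicate 2 in 16. Against the median of 0.99 of the neutrophil markers, 65 of the 74 had a larger log2 fold change and 9 a smaller one. The 74 were picked by a test that favours large changes and the markers were not, so no conclusion is drawn from this split. Mmp8 and Retnlg, 2 of the 74, are themselves on that marker list. Leaving out any 1 library other than control replicate 1 left 0 genes past the threshold, with 944 to 2662 at an unadjusted p under 0.05. Leaving out 1 further library beside control replicate 1 gave 54 rising and 2 falling genes without control replicate 2, 12 and 3 without control replicate 3, 641 and 160 without CTT replicate 1, 119 and 6 without CTT replicate 2, and 256 and 29 without CTT replicate 3.

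**Figure D2:**
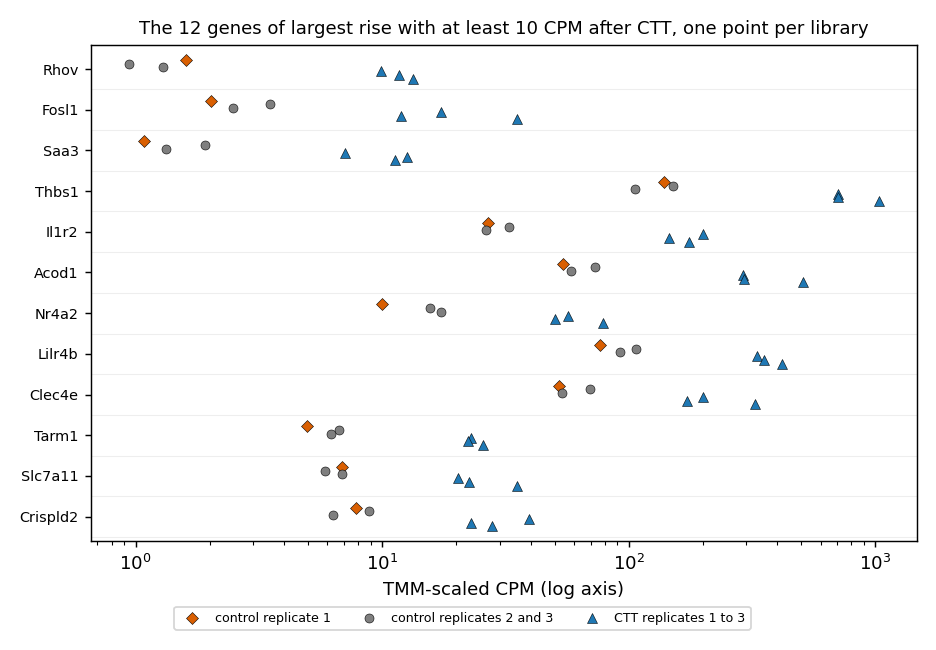
CPM in each library (logarithmic axis, 1 point per library) of the 12 genes of largest log2 fold change with all 6 libraries among those with a mean of at least 10 CPM after CTT. In each row the 3 CTT libraries (triangles) lie above the 3 control libraries (diamond for replicate 1, circles for replicates 2 and 3), as for all 74 genes that rose.

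The 74 genes fell into secreted proteins (12), immune receptors (17), adhesion and other surface proteins (5), transcription factors (8), signalling proteins (7), enzymes and transporters of metabolism (12), chaperone partners (2) and others (11), by a grouping made after the calls were known. The secreted proteins included Cxcl2, a chemokine that attracts neutrophils. Cxcl2 (Entrez 20310, chr5:90903899-90905938) had 272, 334 and 279 CPM in control replicates 1 to 3 and 1027, 1199 and 1091 CPM in CTT replicates 1 to 3. The lowest CTT library was above 3 times every control library, and the log2 fold change was 1.91 (SE 0.14, adjusted p = 0.0131). Its neighbour Cxcl3 (chr5:90786101-90788093), a chemokine for the same receptor, had 1.51, 0.657 and 0.518 CPM in the controls and 9.65, 10.99 and 7.92 CPM after CTT, which are 53, 21 and 18 counts against 324, 370 and 255. It was the only gene of the 74 whose log2 fold change moved by more than its SE when control replicate 1 was left out.

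Both chemokine genes lie on mouse chromosome 5, and their promoters are shown because they share a match to the binding motif of NF-kB, the factor that switches on many inflammatory genes. The RefSeq windows run from 250 bases before to 50 bases after the start site (GRCm38.p6, plus strand, 5′ to 3′), and capitals mark each match on either strand to GGG, a pair of free bases and TTTCC. The first base of the matches lies 97 and 78 bases before the Cxcl2 start (chr5:90903649-90903948) and 73 bases before the Cxcl3 start (chr5:90785851-90786150).
Cxcl2: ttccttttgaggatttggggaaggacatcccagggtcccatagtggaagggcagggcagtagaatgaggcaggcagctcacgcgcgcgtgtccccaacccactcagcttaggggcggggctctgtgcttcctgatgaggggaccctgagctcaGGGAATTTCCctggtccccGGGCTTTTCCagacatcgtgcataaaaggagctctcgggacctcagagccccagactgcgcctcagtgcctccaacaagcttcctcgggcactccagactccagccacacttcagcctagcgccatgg
Cxcl3: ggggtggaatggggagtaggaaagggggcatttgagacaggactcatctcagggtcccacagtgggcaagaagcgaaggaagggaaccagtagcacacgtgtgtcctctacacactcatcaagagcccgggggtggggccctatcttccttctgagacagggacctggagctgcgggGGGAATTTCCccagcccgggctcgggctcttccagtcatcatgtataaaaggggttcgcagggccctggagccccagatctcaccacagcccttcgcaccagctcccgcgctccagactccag
Of the 74 genes, 59 had a promoter in the table, and 3 of those (5.08%) held this motif, beside 2.14% of the promoters of 10457 tested genes. For the genes that rose without control replicate 1, 7 of 198 promoters (3.54%) held it, beside 2.16%. A match in this window is a description of its letters.

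Thbs1 (chr2:118111876-118127133), thrombospondin 1, a matrix glycoprotein that restrains vessel growth and activates TGF-beta, had 139, 151 and 106 CPM in the control libraries and 706, 703 and 1035 CPM after CTT (log2 fold change 2.63, SE 0.22, adjusted p = 0.0132). Vegfa, the main growth factor of blood vessels, had 11.7, 11.2 and 9.60 CPM and 30.7, 32.6 and 55.7 CPM (log2 fold change 1.87, adjusted p = 0.0406). In both genes CTT replicate 3 was the highest library. Prok2, a secreted peptide that mobilises myeloid cells and supports vessel growth, had 7, 3 and 7 counts in the control libraries and 89, 117 and 153 after CTT. These 3 genes belong, with Vcan and Adam8, to the angiogenesis and matrix list, of which 5 of 20 tested members rose with all 6 libraries and 8 without control replicate 1 (beside 0.567% and 1.93% of all tested genes), none fell, and the median log2 fold change was 1.12 and 1.12. Vcan, the matrix proteoglycan versican, is also on the monocyte marker list, and had 27.7, 32.5 and 19.5 CPM in the controls and 73.7, 79.7 and 119.9 CPM after CTT.

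The acute-phase protein Saa3 (chr7:46711998-46719615) had 1.08, 1.91 and 1.32 CPM in the controls and 7.06, 12.7 and 11.3 CPM after CTT (log2 fold change 2.84, SE 0.33, adjusted p = 0.0296). Lrg1, a secreted glycoprotein of neutrophil granules that acts on vessel growth, had 69.2, 76.2 and 54.6 CPM and 179, 204 and 179 CPM. Osm, the IL-6 family cytokine oncostatin M, had 67.6, 79.4 and 67.3 CPM and 128, 149 and 145 CPM, and its log2 fold change of 0.98 was among the smaller of the 74. Together with Socs3, the feedback inhibitor of this cytokine family (113, 141 and 134 CPM against 287, 234 and 266 CPM), these were 4 of the 18 tested members of the IL-6 family, STAT3 and SOCS list that rose. Without control replicate 1, 7 did, the added ones being Lif, Hp and Il10. The shares of all tested genes were 0.567% and 1.93%.

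Crispld2 (chr8:119992438-120052794), a secreted protein that binds lipopolysaccharide, had 7.84, 8.85 and 6.33 CPM in the controls and 39.5, 22.9 and 27.97 CPM after CTT (log2 fold change 1.97, adjusted p = 0.0299). The granule collagenase Mmp8 had 79.4, 93.6 and 66.2 CPM and 299.8, 282 and 335 CPM, a log2 fold change of 1.94. Retnlg, a resistin-like protein of mature neutrophils, had 111, 105 and 74.8 CPM and 221, 380.1 and 339 CPM. The last 2 are on the neutrophil marker list, whose median log2 fold change was 0.99.

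Among the 17 receptors, Il1r2 (chr1:40084692-40125230), the decoy receptor that binds IL-1 without signalling, had 27.0, 32.6 and 26.4 CPM in the controls and 200.3, 145 and 175 CPM after CTT. Its log2 fold change of 2.60 (SE 0.17, adjusted p = 0.0127) had the smallest adjusted p of the 74 genes, and without control replicate 1 it was 2.56. Il1rap, the shared signalling partner of the IL-1 receptors, had 27.6, 35.03 and 32.3 CPM and 72.7, 78.5 and 58.0 CPM, and rose by log2 1.14. Nlrp3, the sensor of the inflammasome that matures IL-1, had 67.7, 88.2 and 74.5 CPM and 222, 215 and 387 CPM (log2 fold change 1.84). Of 20 tested members of the IL-1 and inflammasome list, these 3 rose with all 6 libraries and 7 without control replicate 1 (0.567% and 1.93% of all tested genes). Added were Il1b, Il18rap, Il1f9 and Casp4. The cytokine Il1b itself had 395, 529 and 385 CPM and 789.7, 1052 and 1103 CPM, with an adjusted p of 0.0636 with all 6 libraries and 0.0249 without control replicate 1.

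C-type lectin and TREM receptors recognise fungal, bacterial and dead-cell material and signal through the adaptors FcRγ and DAP12. Clec4e (chr6:123281789-123289871), also called Mincle, had 52.0, 69.8 and 53.4 CPM in the controls and 201, 173 and 326 CPM after CTT. Its neighbour and partner Clec4d (chr6:123262107-123275268) had 35.3, 51.7 and 40.7 CPM and 135, 167 and 149 CPM. Trem1, which amplifies toll-like receptor signals, had 55.8, 71.1 and 53.5 CPM and 188, 213 and 255 CPM, and Tarm1 (chr7:3486499-3502754), another activating receptor that pairs with FcRγ, had 4.96, 6.69 and 6.21 CPM and 23.0, 22.4 and 25.6 CPM. The log2 fold changes of these 4 genes lay between 1.82 and 2.00, and their groups did not overlap, as for all 74 genes that rose. Clec4e, Clec4d and Trem1 were the 3 of 18 tested members of the C-type lectin and TREM list that rose with all 6 libraries. Without control replicate 1, 4 did, with Clec5a added (0.567% and 1.93% of all tested genes). The list had a median log2 fold change of 0.41 and 0.45, and Tarm1 is not on it.

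Members of the inhibitory and paired receptor list rose beside the activating receptors. Lilr4b (chr10:51480612-51486329) and the adjacent Lilrb4a (chr10:51490898-51496613), members of the leukocyte immunoglobulin-like receptor family, are close in sequence, and reads may have been split between them. Lilr4b had 76.2, 107 and 92.0 CPM in the controls and 332, 355 and 418 CPM after CTT, and Lilrb4a had 111, 141 and 128 CPM and 316, 369 and 469 CPM. Cd33, a sialic acid-binding receptor, had 34.9, 42.8 and 27.4 CPM and 132, 91.0 and 86.0 CPM, and Cd300lf, which binds lipids of dying cells, had 61.2, 76.2 and 66.0 CPM and 187, 152 and 135 CPM. These were 4 of 18 tested members of the list, of which 5 rose without control replicate 1, with Siglece added (0.567% and 1.93% of all tested genes). CTT replicate 1 was the highest library for Cd33 and Cd300lf.

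Receptors for bacterial products, complement and chemokines were also among the 17. Cd14, the lipopolysaccharide co-receptor, had 76.9, 79.2 and 63.9 CPM in the controls and 224, 224 and 278 CPM after CTT (log2 fold change 1.72, adjusted p = 0.0132). Tlr13, a sensor of bacterial ribosomal RNA, had 84.8, 91.3 and 80.1 CPM and 172, 164 and 179.8 CPM, and C5ar1, the receptor of the complement fragment C5a, had 43.3, 51.0 and 42.6 CPM and 107, 115 and 131 CPM. The chemokine receptor Ccr1 had 61.0, 97.2 and 76.5 CPM and 215, 233 and 218 CPM. It was the only 1 of 14 tested chemokine receptors that rose with all 6 libraries (0.567% of all tested genes). Without control replicate 1, 3 did (1.93%), with Cxcr2 and Cxcr4 added. Hcar2, the receptor for ketone bodies and niacin, Il13ra1, a chain of the IL-4 and IL-13 receptor, and Tnfrsf1a, the main TNF receptor, rose by log2 1.40, 1.14 and 0.73, and the last was the smallest change of the 74.

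Of the 5 adhesion and surface genes, 3 were of low level. Pdpn, the podoplanin that binds the platelet receptor CLEC-2, was counted 1, 0 and 1 times in the control libraries and 21, 30 and 42 times after CTT, so that its log2 fold change of 5.34 rests on 2 control counts. Selp, the P-selectin of platelets and endothelium, had 1.91, 2.28 and 1.75 CPM and 9.56, 7.04 and 5.71 CPM, and Mcam, an adhesion molecule of vessel walls, 1.77, 1.59 and 1.55 CPM and 6.37, 6.51 and 4.75 CPM. The 12 platelet and megakaryocyte markers summed to 261, 137 and 92.6 CPM in the controls and 75.3, 87.1 and 137 CPM after CTT, with 0 of 12 past the threshold. The endothelial and stromal markers summed to 217, 294 and 311 CPM and 275, 283 and 278 CPM. Adam8, a protease of neutrophil granules that sheds adhesion molecules, had 78.2, 93.8 and 80.1 CPM and 169.9, 184 and 194 CPM.

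**Figure D3:**
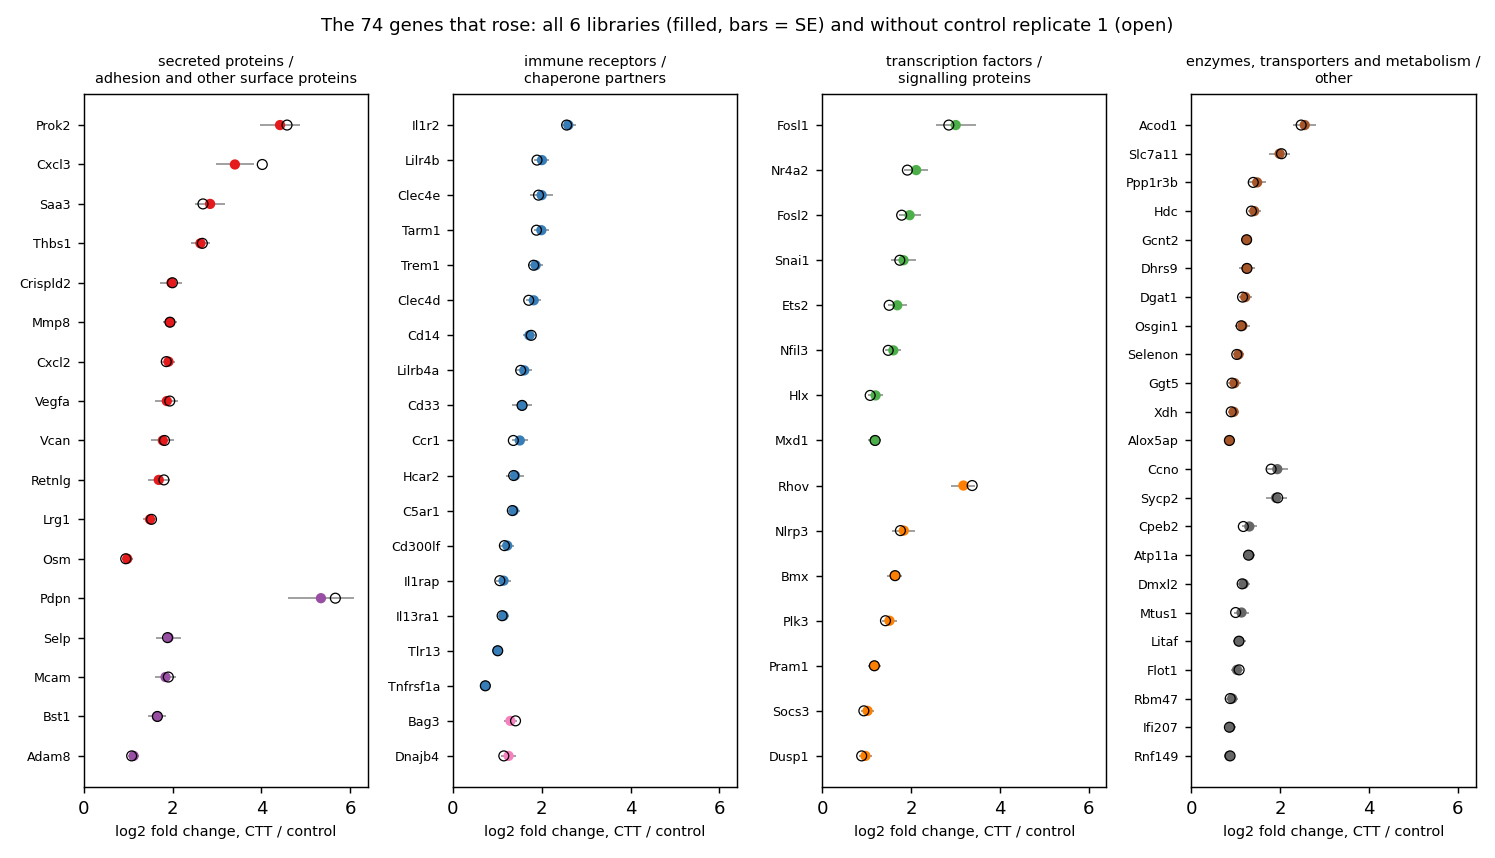
Log2 fold change (CTT over control) of each of the 74 genes that rose, grouped by role (filled points with all 6 libraries, bars 1 SE; open points without control replicate 1). Filled and open points lie less than 0.2 apart for 72 genes, more for Cxcl3 and Pdpn, and all lie above 0.

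Among the 8 transcription factors, Fosl1 (chr19:5447698-5455938), an AP-1 subunit, had 2.02, 3.50 and 2.47 CPM in the controls and 17.3, 11.9 and 35.2 CPM after CTT. CTT replicate 3 stood well above the other 2 CTT libraries, and the log2 fold change of 3.01 had an SE of 0.45 (adjusted p = 0.0467). Its relative Fosl2 had 52.0, 87.4 and 75.6 CPM and 255, 231 and 355 CPM. Nr4a2 (chr2:57106830-57124003), an immediate-early nuclear receptor, had 9.95, 15.6 and 17.3 CPM and 56.8, 50.4 and 78.6 CPM, with a log2 fold change of 2.12 with all 6 libraries and 1.92 without control replicate 1, the largest decrease among the 74. Ets2, a target of MAP kinases, Nfil3, a repressor tied to the circadian clock, Snai1, Hlx and Mxd1, a MYC antagonist that rises as myeloid cells mature, rose by log2 1.69, 1.60, 1.83, 1.20 and 1.18. Mxd1 was nearly level across the CTT libraries at 476, 479 and 474 CPM, beside 212, 242 and 176 CPM in the controls.

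The signalling genes included the gene of largest change among those with at least 10 CPM. Rhov (chr2:119269201-119278008), an atypical small GTPase, had 1.60, 0.938 and 1.29 CPM in the controls and 9.86, 11.7 and 13.3 CPM after CTT (log2 fold change 3.18, SE 0.27, adjusted p = 0.0132). Bmx, a cytoplasmic tyrosine kinase of myeloid and endothelial cells, had 5.45, 5.60 and 5.20 CPM and 15.0, 18.8 and 16.6 CPM, and Plk3, a stress-activated kinase, had 43.0, 52.8 and 53.7 CPM and 118, 152 and 157 CPM. The phosphatase Dusp1, which switches off p38 and JNK and is induced by glucocorticoids, had 909.5, 1118 and 1106 CPM and 1854, 2073 and 2229.8 CPM (log2 fold change 0.97, adjusted p = 0.0422). It was the only 1 of 14 tested MAP kinase phosphatase and ZFP36 genes to rise, in both fits (0.567% and 1.93% of all tested genes).

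Enzymes and transporters changed by log2 0.86 to 2.55. Acod1 (chr14:103047012-103056573), the mitochondrial enzyme that makes itaconate, had 54.3, 73.1 and 58.5 CPM in the controls and 289.8, 293 and 509 CPM after CTT (SE 0.26, adjusted p = 0.0173). Slc7a11 (chr3:50364936-50499087), the cystine importer that feeds glutathione synthesis, had 6.87, 5.85 and 6.90 CPM and 20.2, 22.6 and 35.1 CPM, a log2 fold change of 1.99. Hdc, which makes histamine from histidine, had 87.4, 114 and 89.0 CPM and 255, 242 and 278 CPM. Basophils and mast cells also make histamine, and the 10 eosinophil, basophil and mast cell markers summed to 129, 139 and 133 CPM in the controls and 93.8, 175 and 153 CPM after CTT. Alox5ap, the partner of 5-lipoxygenase in leukotriene synthesis, Ggt5, which trims leukotriene C4, and Xdh, xanthine dehydrogenase, rose by log2 0.86, 0.97 and 0.95, and Dgat1, which stores fatty acids as triglyceride, by 1.21. The remaining 5 were Ppp1r3b, Gcnt2, Dhrs9, Osgin1 and Selenon, with log2 fold changes from 1.06 to 1.48.

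Heat shock chaperones refold proteins damaged by heat, and the list of 18 tested cytosolic ones held 2 of the 74 genes, Bag3 and Dnajb4, both partners of Hsp70. Bag3 had 21.1, 17.0 and 17.1 CPM in the controls and 41.1, 44.2 and 49.99 CPM after CTT (log2 fold change 1.29, adjusted p = 0.0296), and Dnajb4 had 35.7, 46.0 and 46.1 CPM and 83.2, 103 and 119 CPM. Without control replicate 1, 6 of the 18 rose, by addition of Hspa1a, Hspa1b, Hsph1 and Dnajb1. Among all tested genes, 0.567% rose with all 6 libraries and 1.93% without control replicate 1. The inducible Hsp70 genes Hspa1a and Hspa1b are nearly identical copies whose reads may be split between them. Hspa1a had 192, 406 and 509.7 CPM and 941, 1388 and 1314 CPM, and Hspa1b 264, 559 and 681 CPM and 1371, 1920.1 and 1668 CPM. Their adjusted p was 0.121 and 0.108 with all 6 libraries and 0.0114 and 0.00711 without control replicate 1, whose values were the lowest of all libraries for both. The summed level of the list was 10010.2, 8597 and 8928 CPM in the controls and 10544, 13333 and 13328 CPM after CTT.

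The promoters of Dusp1 and Bag3 are shown as genes of a stress response with motif matches in the window. Capitals mark the cyclic AMP response element TGACGTCA in Dusp1 (chr17:26508423-26508722, minus strand), whose first base lies 143 bases before the start. In Bag3 (chr7:128523333-128523632, plus strand) they mark an AP-1 match to TGANTCA that begins 20 bases before the start and a match to GAANNTTC, a pair of heat shock units, that begins at base 43 after it. Both strands were searched, and the motifs marked in each gene do not overlap.
Dusp1: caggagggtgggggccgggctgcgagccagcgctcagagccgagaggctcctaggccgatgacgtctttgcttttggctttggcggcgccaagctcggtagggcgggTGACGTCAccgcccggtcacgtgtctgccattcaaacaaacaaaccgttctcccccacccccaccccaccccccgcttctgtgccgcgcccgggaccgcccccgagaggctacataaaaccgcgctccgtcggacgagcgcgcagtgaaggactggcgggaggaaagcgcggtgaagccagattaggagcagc
Bag3: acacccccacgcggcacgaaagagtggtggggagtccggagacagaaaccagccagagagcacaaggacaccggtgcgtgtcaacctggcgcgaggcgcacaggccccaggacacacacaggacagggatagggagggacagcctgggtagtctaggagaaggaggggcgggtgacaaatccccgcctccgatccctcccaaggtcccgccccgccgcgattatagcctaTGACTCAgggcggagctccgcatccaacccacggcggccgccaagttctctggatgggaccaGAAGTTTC
The AP-1 motif was in 5 of 59 promoters of the genes that rose (8.47%) and in 27 of 198 of those that rose without control replicate 1 (13.6%), beside 6.52% and 6.5% of the promoters of all genes tested in each fit. The response element was in 2 of 59 (3.39%) beside 3.44%, and the heat shock pair in 5 of 59 (8.47%) beside 6.99%. Without control replicate 1 the response element was in 9 of 198 (4.55%) beside 3.45%, and the heat shock pair in 20 of 198 (10.1%) beside 6.98%. For 6 of the 74 genes the table held more than 1 promoter.

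Leaving out control replicate 1 added 183 genes that rose, with log2 fold changes from 0.40 to 5.05 and a median of 0.80, and 177 of them had an unadjusted p under 0.05 with all 6 libraries. In 177 of the 183, control replicate 1 also lay below the CTT libraries, in 2 within their range and in 4 above it. For comparison, every CTT library lay above both other controls in 17.8% of all genes tested without control replicate 1. Every CTT library lay above all 3 controls in 13.6% of those tested with all 6 libraries. Control replicate 1 was lower than both other controls in 121 of the 183 and higher than both in 42. Celsr3, a large adhesion cadherin, was the one gene with at least 10 CPM among the 10 of largest change that is not among the 74, at 2.74, 2.72 and 1.18 CPM in the controls and 13.8, 8.52 and 8.57 CPM after CTT (log2 fold change 2.41, adjusted p = 0.0233 without control replicate 1 and 0.0799 with it).

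AP-1 genes, many of which are transcribed within minutes of a stimulus, were the list with the most added members, with 8 of 14 tested that rose without control replicate 1 beside 2 of 14 with it (1.93% and 0.567% of all tested genes). Fos had 963, 1505 and 1502 CPM in the controls and 2251, 2376 and 2745 CPM after CTT, and Fosb had 438, 901 and 965 CPM and 2016, 1963 and 2679.9 CPM. Atf3, a stress-induced partner, had 141, 245 and 256 CPM and 496, 496 and 883 CPM, and Maff 14.5, 24.9 and 26.3 CPM and 73.1, 63.7 and 151 CPM. In each of these 4 genes control replicate 1 was the lowest library and the CTT libraries lay above all controls. Their log2 fold changes without control replicate 1 were 0.71, 1.26, 1.32 and 1.91 (adjusted p = 0.0186, 0.00856, 0.043 and 0.0402 in edgeR). The list had a median log2 fold change of 0.67 with all 6 libraries and 0.61 without control replicate 1.

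On the list of immediate-early NR4A, EGR and KLF factors, which also holds Ier3 of none of these families, 1 of 15 tested genes rose with all 6 libraries, Nr4a2 (0.567% of all tested genes). Without control replicate 1, 5 rose (1.93%), with Klf4, Klf6, Klf9 and Ier3 added. The list had a median log2 fold change of 0.90 and 0.81. Klf4, which drives monocyte differentiation, had 90.9, 173 and 159.7 CPM in the controls and 289, 298 and 384 CPM after CTT, and Klf6 390.0, 782 and 811 CPM and 1304, 1323 and 1554 CPM. Nr4a3 had 10.9, 14.0 and 15.2 CPM and 74.2, 37.4 and 183 CPM and did not pass in either fit (adjusted p = 0.1 and 0.0688). Its 3 CTT libraries spread more widely than those of Nr4a2.

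Glucocorticoid-responsive genes and clock genes were also looked at as lists. Of 17 tested glucocorticoid targets, Dusp1 and Il1r2 rose with all 6 libraries, and Per1, Klf9 and Cxcr4 were added without control replicate 1. Of the clock genes, 1 of 17 rose with all 6 libraries, Nfil3, and 3 of 18 without control replicate 1. Both lists stand beside 0.567% and 1.93% of all tested genes. Per1, a clock repressor that glucocorticoids induce, had 111, 155 and 161 CPM in the controls and 318, 272 and 404 CPM after CTT (log2 fold change 1.08, adjusted p = 0.0172 without control replicate 1). Ciart, a repressor of the clock factors, had 10.3, 26.5 and 29.7 CPM and 47.7, 52.0 and 54.5 CPM, with an adjusted p of 0.264 and 0.0106. The labels do not state the hour at which each group was sampled, and the time of day and the therapy cannot be told apart.

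Chemokine and cytokine genes and the receptors of chemotaxis gained members in the same way. Ccl7, a monocyte attractant, was counted 10, 3 and 2 times in the control libraries and 33, 53 and 169 times after CTT. Il10, the anti-inflammatory cytokine, had 3.56, 6.07 and 8.34 CPM and 18.4, 17.0 and 33.6 CPM (adjusted p = 0.0437 without control replicate 1, 0.114 with it). Cxcr2, the receptor of Cxcl2 on neutrophils, had 93.2, 136 and 103 CPM and 304, 273 and 212 CPM, with CTT replicate 3 the lowest of the CTT libraries. The formyl peptide receptors Fpr1 and Fpr2 had 29.7, 26.3 and 23.2 CPM and 24.7, 23.2 and 13.7 CPM in the controls and 40.7, 54.5 and 73.9 CPM and 35.6, 53.1 and 64.3 CPM after CTT, and their adjusted p was 0.0458 and 0.0478 without control replicate 1. F3, tissue factor, which starts coagulation, had 0.741, 0.751 and 0.604 CPM and 2.71, 3.50 and 7.73 CPM, a low level in every library.

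Of 16 tested lineage transcription factors, 0 rose with all 6 libraries in edgeR (9 higher at an unadjusted p under 0.05, DESeq2 called 6, limma-voom 0). Without control replicate 1, 5 rose, Cebpb, Cebpd, Spi1, Klf4 and Id2 (0.567% and 1.93% of all tested genes rose in these fits). Cebpb, the factor of emergency granulopoiesis, had 230.4, 271 and 259 CPM in the controls and 402, 478 and 441 CPM after CTT, and Spi1, the myeloid master factor, 225, 273 and 286 CPM and 368, 382 and 357 CPM. Csf3r, the G-CSF receptor and a neutrophil marker, had 424, 565 and 465 CPM and 727, 951 and 817 CPM. The log2 fold changes of these 3 genes without control replicate 1 were 0.74, 0.40 and 0.70, and that of Klf4 was 0.97, beside the median of 0.94 of the neutrophil markers in the same fit. The glucose transporters Slc2a1 and Slc2a3 had 34.6, 57.1 and 65.0 CPM and 107, 114 and 107 CPM in the controls and 99.7, 96.7 and 111 CPM and 175, 166 and 179.6 CPM after CTT, and were 2 of the 3 among 25 hypoxia and glycolysis genes that rose without control replicate 1.

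**Figure D4:**
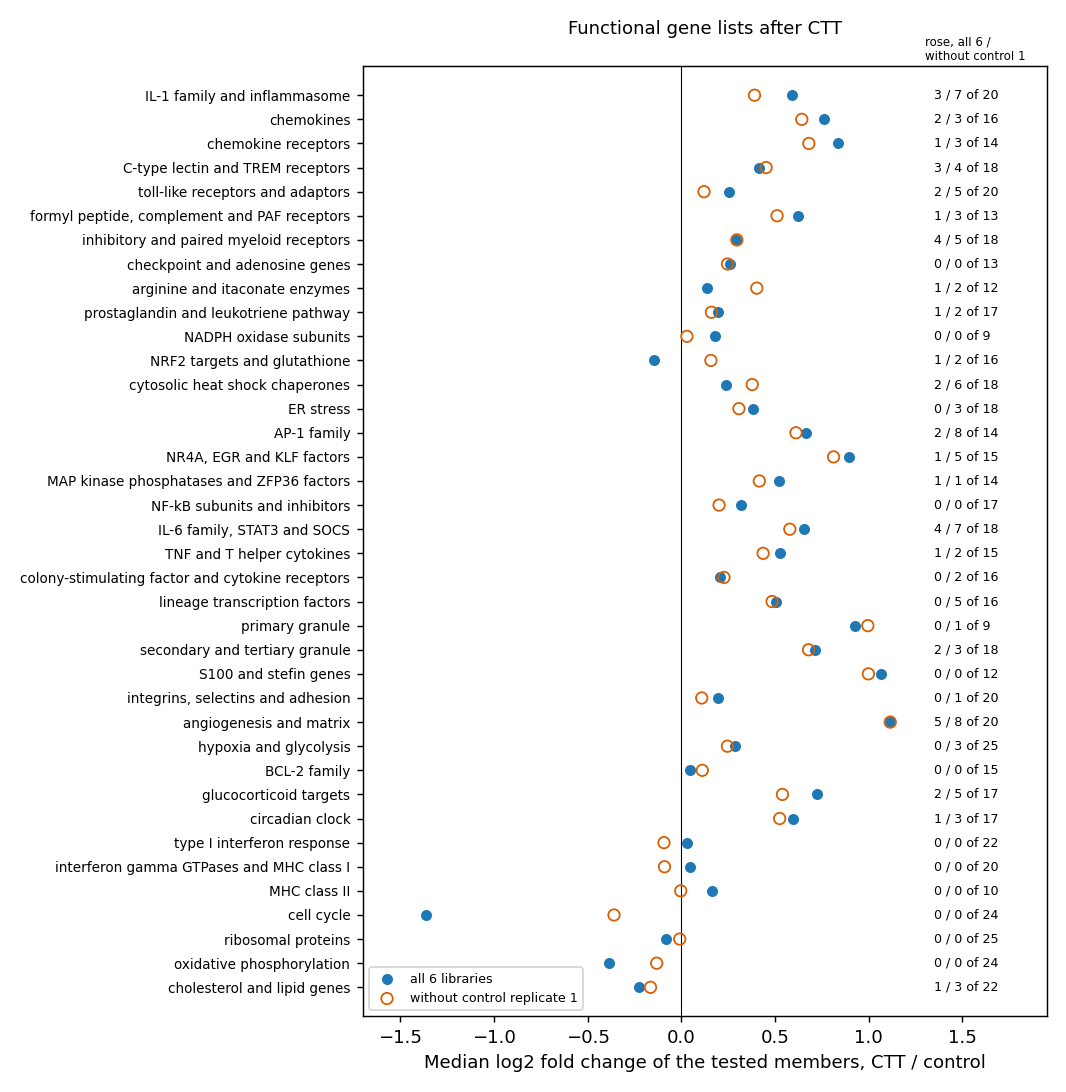
Median log2 fold change (CTT over control) of the tested members of each functional gene list, with all 6 libraries (filled) and without control replicate 1 (open); the figures at the right give how many of the members tested with all 6 libraries rose in each fit. Cell cycle genes moved most between the fits, from −1.36 to −0.36.

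Several lists held no gene past the threshold of edgeR's test in either fit. Of 17 NF-kB subunits and inhibitors, 0 rose, with a median log2 fold change of 0.32 with all 6 libraries and 0.20 without control replicate 1, although 6 had an unadjusted p under 0.05 with all 6 libraries and DESeq2 called 3 (limma-voom 0). Nfkbiz, an inducible co-factor, had 286, 402 and 404 CPM in the controls and 796, 701 and 1374 CPM after CTT, and Tnfaip3, the feedback inhibitor A20, 362, 640.0 and 629.8 CPM and 1072, 899 and 2116 CPM, with the groups apart and CTT replicate 3 far above the other CTT libraries in both. Of 22 type I interferon response genes, 0 passed (2 lower ones at an unadjusted p under 0.05 with all 6 libraries, 1 of them called by DESeq2 and 0 by limma-voom), and the medians were 0.03 and −0.09. This holds for the listed genes only. Outside the list, and picked after its values were seen, Ifi207 rose in both fits (edgeR adjusted p = 0.0467 and 0.0143). Ifitm1 and Ifitm2, picked in the same way, rose only without control replicate 1 (0.0402 for both, and 0.092 and 0.121 with all 6 libraries). Of 20 interferon gamma GTPase and MHC class I genes, 10 MHC class II genes and 9 NADPH oxidase subunits, 0 passed with edgeR, DESeq2 or limma-voom, and with all 6 libraries 0 had an unadjusted p under 0.05 in edgeR. Of 12 S100 and stefin genes 0 passed in edgeR or limma-voom, while 8 had an unadjusted p under 0.05 and DESeq2 called 7. The list had a median of 1.07, and its sum was 1997, 2758 and 1934 CPM in the controls and 3092, 4266 and 5322 CPM after CTT. A miss of the threshold with 3 libraries a group does not show that these genes stayed level.

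The cell cycle and oxidative phosphorylation lists had negative medians in both fits and 0 genes past the threshold of edgeR's test, with 17 and 3 of 24 lower at an unadjusted p under 0.05 with all 6 libraries and 9 and 3 without control replicate 1 (DESeq2 called 1 and 0, limma-voom 0 and 0). In limma-voom 0 and 3 of them were lower at an unadjusted p under 0.05. The 24 cell cycle genes summed to 7684, 2057 and 1686 CPM in control replicates 1 to 3 and 1803, 1375 and 1385 CPM after CTT, and control replicate 1, which also held the erythroid transcripts, was far above the other 5 libraries. The 24 oxidative phosphorylation genes summed to 5629, 3470.3 and 3285 CPM and 3047, 3210.2 and 3213 CPM. In 8 and 11 of these genes every CTT library lay below every control library, where 11.0% of all tested genes did. Outside the cell cycle list, the replication genes Dut, Uhrf1 and Rpa1, named after their values were seen, fell without control replicate 1. Their log2 fold changes there were −0.66, −0.60 and −0.52 (edgeR adjusted p = 0.0279, 0.0403 and 0.0164). With all 6 libraries they did not pass (0.31, 0.319 and 0.243). In each, all controls lay above the CTT libraries and control replicate 1 was the highest library. The part of the erythroid transcripts in these values was not tested.

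No gene fell with all 6 libraries, and the 31 that fell without control replicate 1 had log2 fold changes from −4.08 to −0.41 with a median of −0.63, of which 26 were smaller than 1 in size. All 31 also had a negative log2 fold change with all 6 libraries, and 12 had an unadjusted p under 0.05 there. Control replicate 1 lay above the CTT libraries in 12 of them, within their range in 2 and below them in 17. The largest was Fam177a2, named after its values were seen and a close neighbour of the similar Fam177a, so that its reads may be split, with 0.542, 4.57 and 7.19 CPM in the controls and 0.357, 0.267 and 0.404 CPM after CTT.

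Genes of sterol synthesis were among those that fell. Lss, lanosterol synthase, had 23.5, 20.5 and 17.4 CPM in the controls and 11.3, 12.1 and 11.3 CPM after CTT (log2 fold change −0.71, SE 0.14, adjusted p = 0.0467 without control replicate 1, −0.82 and 0.108 with it), and all 3 controls lay above the CTT libraries. Srebf2, the factor that drives these genes, had 284, 409 and 446 CPM and 285, 277 and 310.1 CPM, and here control replicate 1 lay within the CTT range. Sqle and Fdft1, other enzymes of the pathway, had 42.0, 23.1 and 25.0 CPM and 45.3, 29.8 and 28.4 CPM in the controls and 7.80, 12.7 and 14.2 CPM and 14.7, 19.6 and 18.7 CPM after CTT, without passing (adjusted p = 0.15 and 0.158 with all 6 libraries, 0.0716 and 0.058 without control replicate 1). Of the 22 tested members of the cholesterol and lipid list, 7 (31.8%) had every CTT library below every control library, beside 11.0% of all tested genes. Lss and Srebf2 were the 2 that fell without control replicate 1, while Plin2, Hilpda and Hcar2, which store or sense lipid, rose. Of all tested genes 0.233% fell and 1.93% rose in that fit. With all 6 libraries Hcar2 passed in edgeR (adjusted p = 0.0446), and Hilpda and Plin2 did not (0.0905 and 0.392). Control replicate 1 lay within the CTT range for Plin2.

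Fcer2a and Tnfrsf13c, known from B cells, and Cd5 were also among those that fell, while Fcrl5, another B cell receptor gene, named after its values were seen, rose without control replicate 1 (log2 fold change 0.74, adjusted p = 0.0224). Fcer2a, the IgE receptor CD23 of mature B cells, had 217, 531 and 554 CPM in the controls and 298, 343 and 344 CPM after CTT (log2 fold change −0.72, adjusted p = 0.0119 without control replicate 1, −0.40 and 0.561 with it). Tnfrsf13c, the BAFF receptor that B cells need to survive, had 65.3, 149.8 and 154 CPM and 88.4, 95.6 and 76.5 CPM, and Cd5, found on T cells and some B cells, 11.3, 28.5 and 24.5 CPM and 15.8, 15.3 and 17.6 CPM. In these 3 genes control replicate 1 was the lowest library, so that with it the groups overlapped. The B cell markers as a list held 1 gene that fell among 12 without control replicate 1, where 0.233% of all tested genes fell. Their median was −0.11 without control replicate 1 and 0.18 with it. The T cell markers, with Cd5 the 1 of 11 that fell, had a median of −0.51 without control replicate 1 and summed to 217, 339 and 354 CPM in the controls and 241, 269.9 and 281 CPM after CTT. The part of the B cell and T cell content in these values was not tested.

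Timd4, the phosphatidylserine receptor of resident macrophages, had 13.8, 16.2 and 16.6 CPM in the controls and 8.58, 8.26 and 7.70 CPM after CTT (log2 fold change −1.0, adjusted p = 0.0143 without control replicate 1), and the other controls and control replicate 1 all lay above the CTT libraries. Apol7c had 37.8, 66.1 and 56.8 CPM and 18.3, 30.6 and 26.1 CPM, and Pla2g2d, a secreted phospholipase of resident myeloid cells, 6.99, 13.5 and 21.1 CPM and 4.32, 6.15 and 6.30 CPM. The red pulp macrophage markers held 1 gene that fell among 12, Timd4 being the one, with a median log2 fold change of 0.10 without control replicate 1. Of all tested genes 0.233% fell in that fit. The dendritic cell markers, none of 10 past the threshold, summed to 546, 551 and 554 CPM in the controls and 476, 569 and 644 CPM after CTT. Gemin4, of the complex that loads splicing particles, and Akap12, a scaffold of protein kinase A, had 27.0, 18.9 and 16.5 CPM and 17.8, 34.8 and 33.4 CPM in the controls and 10.4, 10.9 and 9.47 CPM and 21.8, 19.4 and 20.6 CPM after CTT.

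**Figure D5:**
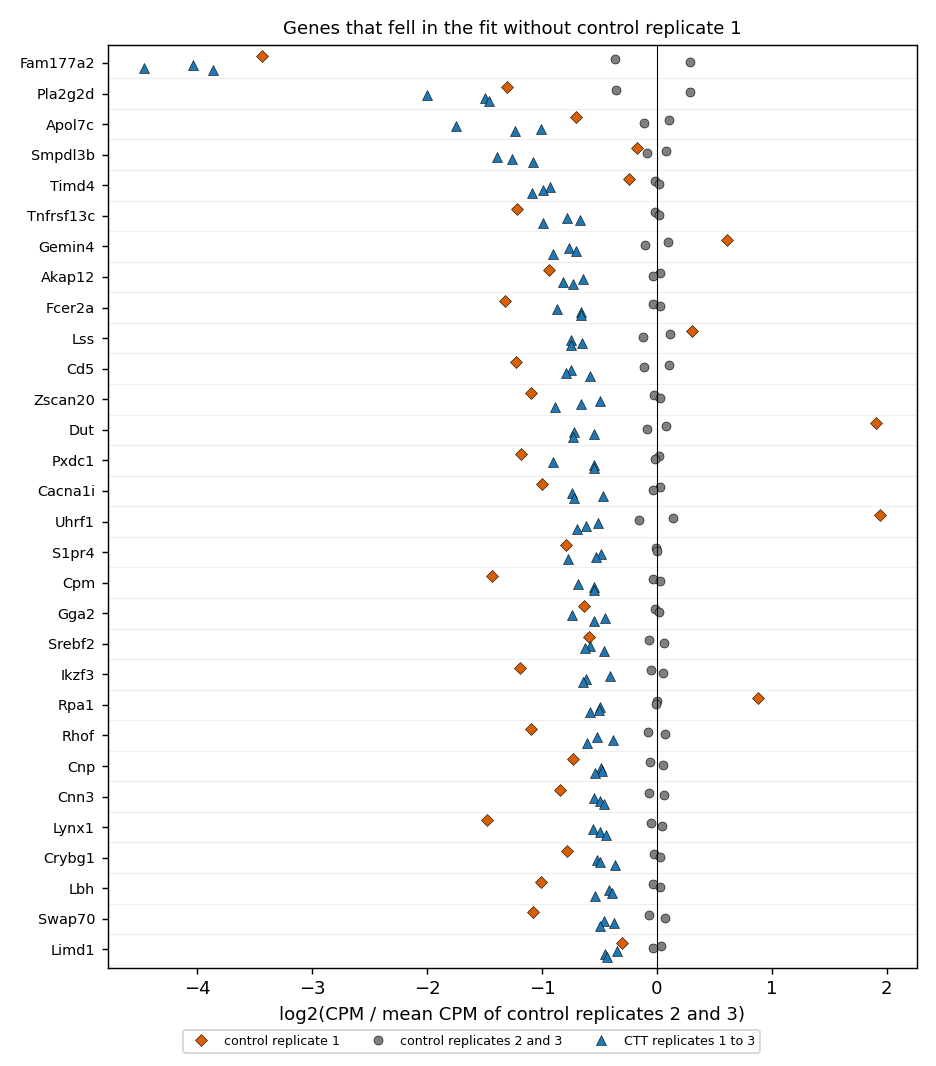
CPM of 30 of the 31 genes that fell without control replicate 1, as log2 of the ratio to the mean of control replicates 2 and 3 (1 point per library: diamonds for control replicate 1, circles for the other controls, triangles for CTT). The CTT libraries lie to the left of both circles in every row, and the diamond lies left of the triangles for Fcer2a, Tnfrsf13c and Cd5 and right of the circles for Lss and Gemin4.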

How the data were processed

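Per the labels' protocols, RNA was isolated in TRIzol and the VAHTS Universal V6 kit was used for library construction. The neutrophil table the authors deposited holds read counts as whole numbers, made with HISAT2, HTSeq and mm10 per the submitters' processing notes, and FPKM values of the same genes. Neither the versions nor the gene annotation nor the strand setting is stated there, so that overlapping, antisense and near-identical genes are uncertain. Of the Entrez IDs, 16709 of 16805 matched a RefSeq table of assembly GRCm38.p6, which gave coordinates and promoters.

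The deposited counts entered edgeR 4.0.16 in R 4.3.3 without change (filterByExpr, TMM, quasi-likelihood F test, two-sided, Benjamini-Hochberg over all tested genes, threshold 0.05), with all 6 libraries and without control replicate 1. Standard errors are approximate, the absolute log2 fold change over the square root of F. The common biological coefficient of variation was 0.275 and 0.158. CPM are TMM-scaled, from all 6 libraries. FPKM served for levels per gene length and for limma-trend. Alternatives used other normalizations and filters, DESeq2 1.42.0 and limma 3.58.1. In a chi-square test every library differed from every other beyond sampling noise.

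The 38 functional and 14 marker lists, the members and the rule for named genes were chosen with earlier results of these data known. Named were any of the genes that rose with all 6 libraries, the 10 rising and 10 falling of largest change without control replicate 1 (protein coding, at least 10 CPM), list members past the threshold in either fit or up to 5 others of smallest p, and markers. Some results are not reported here.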

Additional observations from a re-analysis of the deposited data

How the results depend on the processing

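With all 6 libraries, 74 genes rose and 0 fell, and other normalizations, other filters on low counts and limma-voom gave 53 to 80 rising genes and 0 falling ones. DESeq2 called 455 and 107, and limma-voom with library quality weights, which gave control replicate 1 a weight of 0.114, called 713 and 163, among them all 257 genes that rose and 28 of the 31 that fell without that library. Limma-trend on log2(FPKM + 1) called 49 and 1, on log2(FPKM + 0.1) 56 and 1, and without a minimum FPKM 8 and 0. Leaving out 1 library gave 0 to 257 rising and 0 to 31 falling genes, the highest without control replicate 1.

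The replicate number as a block gave 4 rising and 1 falling gene. Deviations of same-numbered libraries correlated at 0.19, 0.0065 and 0.18, not every library correlated best with its own number, and the numbers were not treated as pairs.

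Without control replicate 1 (257 and 31), alternatives chosen after seeing the data gave 265 and 33 with DESeq2 size factors, 232 and 67 with library totals, 657 and 194 with DESeq2 and 225 and 32 with limma-voom. Leaving out a further library gave 12 to 641 rising and 2 to 160 falling genes. None of the 126 genes whose fold change was compared across the alternatives to the fit with all 6 libraries reversed. The cause of these differences was not tested. The effect of depth was not tested, and genes of few counts, such as Pdpn, rest on little data.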

Other observations

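Counts of further gene groups past the threshold of edgeR's test follow, beside 0.567% of all tested genes that rose with all 6 libraries and 1.93% without control replicate 1. Of 20 toll-like receptors and adaptors, Cd14 and Tlr13 rose with all 6 libraries, and Tlr2, Tlr6 and Myd88 were added without control replicate 1. Of 18 tested ER stress genes, 0 rose with all 6 libraries (10 higher at an unadjusted p under 0.05, DESeq2 called 6, limma-voom 0) and 3 rose without control replicate 1, Ddit3, Atf3 and Dnajb9. Of 12 arginine and itaconate enzymes, Acod1 rose in both fits and Arg2, the mitochondrial arginase, rose without control replicate 1. Of 16 NRF2 targets and glutathione genes, Slc7a11 rose in both fits and Gsr, glutathione reductase, was added without control replicate 1. Of 17 prostaglandin and leukotriene genes, Alox5ap rose in both fits and Pla2g7, which breaks down platelet-activating factor, was added. Of the 13 tested members of the checkpoint and adenosine list, 0 rose in edgeR (4 higher at an unadjusted p under 0.05 with all 6 libraries, 1 called by DESeq2, 0 by limma-voom). The checkpoint receptor Ctla4, outside this list and named after its values were seen, rose without control replicate 1. It had 10.4, 17.5 and 17.5 CPM in the controls and 30.6, 32.0 and 43.6 CPM after CTT (edgeR adjusted p = 0.0278, and 0.121 with all 6 libraries). Of the 20 tested members of the integrin, selectin and adhesion list, Selplg, the selectin ligand of leukocytes, was the 1 that rose, without control replicate 1. The adhesion genes Selp and Mcam, described above, are not on this list and rose in both fits. Their edgeR adjusted p was 0.0422 and 0.0321 with all 6 libraries.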
